A study of Mus musculus with 8 samples.

Results

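The 10 genes described here take up, activate or break down azacitidine or set the pool of deoxynucleotides that its active form joins. They are Cda, Uck1, Uck2, Dck, Slc29a1, Samhd1, Cmpk1, Dctd, Rrm1 and Rrm2, chosen by symbol, and all 10 were among the 12294 genes of the deposited table. Expression was measured by QuantSeq, which sequences the 3′ ends of polyadenylated transcripts, in progenitor cells of a mouse leukemia, named I1DN in the labels, which do not spell the name out. Mice transplanted with I1DN cells were given vehicle, AG120 (AG-120, the mutant IDH1 inhibitor ivosidenib), AZA (azacitidine) or both drugs (AG120_AZA), with a labelled time of 5 days. From each mouse, cells that carried cKit and lacked CD11b were then sorted. Each of the 4 groups had 2 libraries, and all groups, vehicle included, carried the same transplanted leukemia. Whether every library came from its own mouse is not stated in the labels, so p-values reflect the spread between these libraries, which may be technical.

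Azacitidine is a cytidine analogue that has to be converted inside the cell before it acts. Nucleoside transporters such as ENT1 (Slc29a1) carry it across the membrane, uridine-cytidine kinases (Uck1, Uck2) add the opening phosphate, which is the rate-limiting step, and the nucleoside monophosphate kinase Cmpk1 adds the next. Ribonucleotide reductase, made of the subunits Rrm1 and Rrm2, turns a share of the diphosphate into the deoxy form, which enters DNA and traps DNA methyltransferases. Cytidine deaminase (Cda) converts cytidine, deoxycytidine and their analogues, azacitidine and decitabine among them, to uridine forms. Dck phosphorylates deoxycytidine and decitabine, Dctd deaminates deoxycytidine monophosphate, and Samhd1 hydrolyses deoxynucleoside triphosphates.

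Of the 10 genes, Cda alone passed the test in any comparison, and it did so in 3 of 8. Its level was 22.3 times higher in the AG120_AZA group than in vehicle and 17.2 times higher than in AZA, and over both AZA levels it was 9.67 times higher with AG120 than without. The kinases, the transporter, the reductase subunits and the other catabolic enzymes moved by less than 1 log2 unit in every comparison and none of them passed.

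Cda lies on the minus strand at chr4:138338424-138367992 (GRCm38, GENCODE M21). The 213 bases just upstream of its GENCODE start (chr4:138367993-138368205, minus strand), taken from the RefSeq promoter table (GRCm38.p6), whose own start lies further into the gene at position 138367955, are printed because Cda carries the main result and azacitidine acts on cytosine methylation. The 81 bases upstream of the GENCODE start of Samhd1 (chr2:157135266-157135346, minus strand; RefSeq start at 157135096), the gene that came nearest to a call after Cda in the comparison of libraries with and without AG120, are set beside them. Capitals mark CpG dinucleotides, the sites that DNA methyltransferases modify.
Cda: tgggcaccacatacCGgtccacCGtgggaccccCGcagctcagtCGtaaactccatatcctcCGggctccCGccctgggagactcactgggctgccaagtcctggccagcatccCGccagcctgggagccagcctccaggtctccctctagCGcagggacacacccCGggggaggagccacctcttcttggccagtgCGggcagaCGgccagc
Samhd1: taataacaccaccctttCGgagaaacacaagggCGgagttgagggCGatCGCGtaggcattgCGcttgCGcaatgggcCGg
The Cda stretch holds 11 CpG and the Samhd1 stretch holds 8. Over the 250 bases before the RefSeq start, Cda has 14 CpG, more than 70.6% of the 32841 such windows in RefSeq, and Samhd1 has 26, more than 90.4%. The median window holds 6. The Cda window contains the GC box letters GGGCGG at 1 place, counted on both strands, as do 32.8% of all windows. It holds neither AGATAA, the letters of a GATA motif found in 9.99% of windows, nor CCACACCC, a KLF motif found in 3.20%. Methylation was not analysed here, and these letters describe the reference genome only.

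Levels are given as log2 CPM, in which a step of 1 is a doubling on the deposited scale. Levels of different genes are not compared, except that genes of marker lists were ranked by mean and summed. Such sums mostly follow the genes with the highest values. All 8 libraries have a maximum of 13.37 and medians of 4.35 to 4.36, so their values follow nearly one distribution, and a level or fold is relative to the other genes of its library on that scale. Cda stood at 2.03 and 1.27 in the vehicle libraries, 4.83 and 3.35 in AG120, 0.98 and 3.07 in AZA, and 5.92 and 6.33 in AG120_AZA. Both AG120_AZA libraries lay above all 6 others, and both AG120 libraries lay above the vehicle and AZA libraries, with AZA replicate 2 close below AG120 replicate 2. Group levels were 1.65 ± 0.54 (SD, n = 2) in vehicle, 2.02 ± 1.48 in AZA, 4.09 ± 1.04 in AG120 and 6.13 ± 0.29 in AG120_AZA. In this order vehicle and AZA overlapped, and AZA and AG120 were not compared directly. The depth of each library is unknown after the authors' scaling. The number of distinct values between a gene and the lowest value of its library gives a lower bound on its reads. For Cda that bound was 13 to 47 reads in the vehicle and AZA libraries, 70 and 181 in AG120, and 440 and 464 in AG120_AZA.

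**Figure D1:**
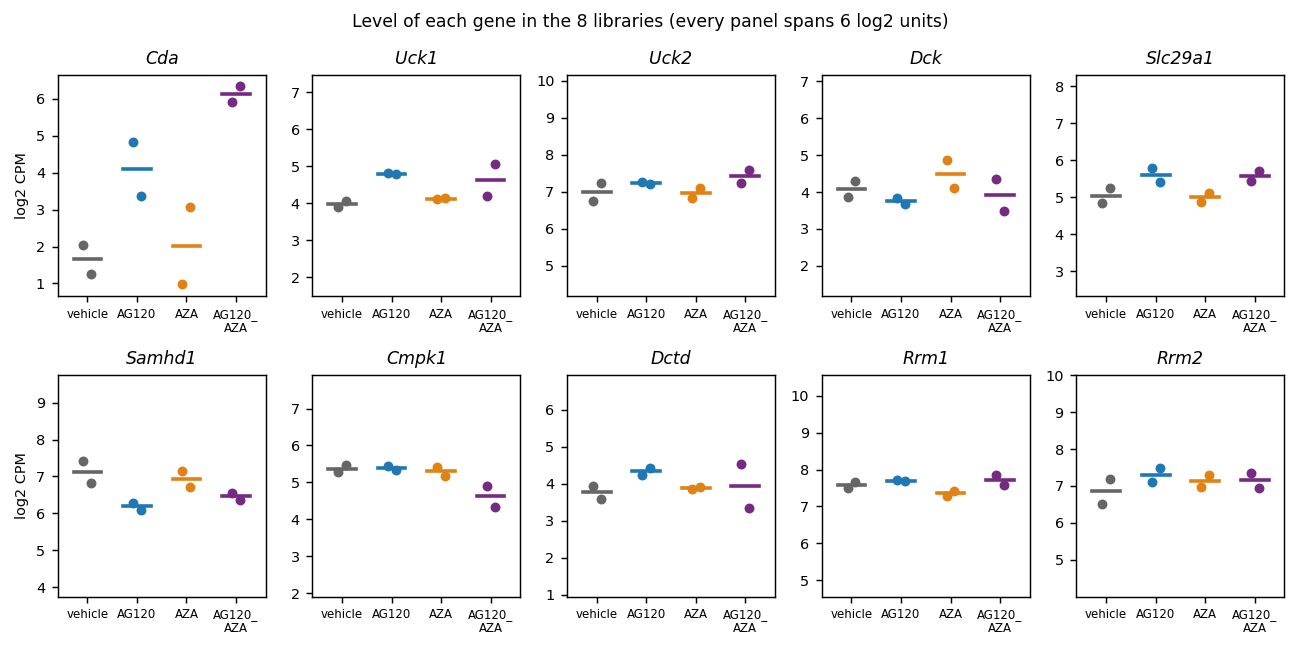
Level of each of the 10 genes (log2 CPM, vertical axis, every panel spanning 6 log2 units) in the 8 libraries by treatment group; points are single libraries and bars are group means. Cda spans 0.98 to 6.33, and its 2 AG120_AZA libraries lie above the rest.

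The AG120_AZA group was compared with vehicle to show the effect of both drugs. Cda rose by 4.48 ± 0.68 log2 units (SE, 95% interval 2.99 to 5.96, adjusted p = 0.00685, limma). It was the 1 gene called of the 10, in a comparison that called 3.02% of all genes in either direction. The median change of the 10 genes was 0.24, beside 0.02 over all genes. The Cda call was lost without AG120_AZA replicate 2, where the change was 4.27 (adjusted p = 0.0841), and when the spread was modelled without its trend over expression level (adjusted p = 0.0881).

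Against AZA alone, AG120_AZA gives the effect of adding AG120. Cda was higher by 4.10 ± 0.68 (95% interval 2.62 to 5.59, adjusted p = 0.0131) and was again the 1 gene called of the 10, where 2.26% of all genes were called. The call was lost without AZA replicate 1 (change of 3.06, adjusted p = 0.137), without AG120_AZA replicate 2 (3.90, adjusted p = 0.156) and without the trend (adjusted p = 0.120).

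AG120 alone gave a Cda change of 2.44 ± 0.68 from vehicle (95% interval 0.96 to 3.93, adjusted p = 0.151), which did not pass although the AG120 libraries lay above both vehicle libraries. Of the 10 genes, 7 did not overlap between these groups (5 higher, 2 lower), where 46.6% of all genes did not. None of the 10 genes was called in that comparison by limma (0 of 10, 3 at an unadjusted p below 0.05), where 0.578% of all genes were. The 3 were Cda, Samhd1 and Uck1. Samhd1 had a change of -0.93 ± 0.26, with the same adjusted p as Cda (0.151, limma), and Uck1 one of 0.83 ± 0.34 (adjusted p = 0.331, limma). AZA alone gave a Cda change of 0.37 ± 0.68 (95% interval -1.11 to 1.86), with AZA replicate 2 above both vehicle libraries and AZA replicate 1 below both. With AZA alone limma called 0 of the 10 and 0.00% of all genes (0 of the 10 and 432 genes at an unadjusted p below 0.05). This interval still allows a rise or a fall of more than 1 log2 unit.

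Adding AZA to AG120 gave a Cda change of 2.04 ± 0.68 (95% interval 0.55 to 3.52, adjusted p = 0.384). No gene passed in that comparison by limma (0.00% called; 2 of the 10 and 1237 genes at an unadjusted p below 0.05). Whether AG120 acts differently with AZA present was tested by the interaction term, which was 1.66 ± 0.95 for Cda (95% interval -0.44 to 3.76, adjusted p = 0.808). The interaction called 0.00% of all genes (0 of the 10 and 765 genes at an unadjusted p below 0.05). The larger Cda change in the combination is therefore not shown to exceed the sum of the changes with each drug.

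Set over both AZA levels, the 4 libraries with AG120 were compared with the 4 without it in an additive model. Cda was higher by 3.27 ± 0.52 (95% interval 2.14 to 4.41, adjusted p = 0.00497), with no overlap between the 4 and the 4. It was 1 of 10 genes called, beside 5.85% of all genes, and it stayed called in each of 8 omissions of a library, with changes from 2.69 to 3.73. Without the trend its adjusted p was 0.0555. The matching difference for AZA, over both AG120 levels, was 1.21 ± 0.52 for Cda (95% interval 0.07 to 2.34, adjusted p = 0.771), and limma called 0.00% of all genes (1 of the 10 and 761 genes at an unadjusted p below 0.05).

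**Figure D2:**
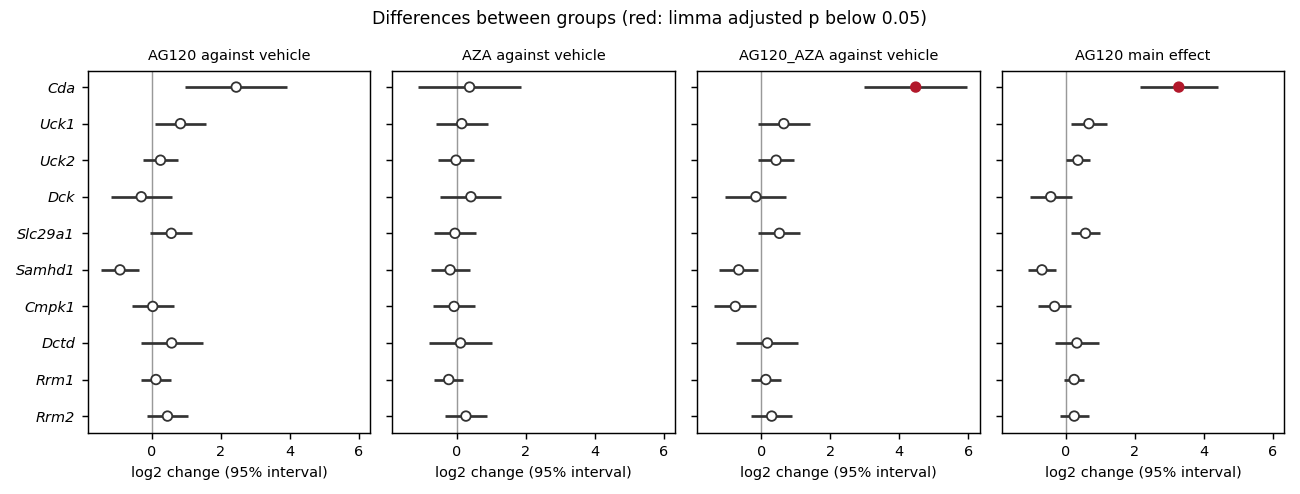
Change of each of the 10 genes (log2 units, horizontal axis) in the 4 comparisons named above the panels, where the AG120 main effect sets the 4 libraries with AG120 against the 4 without; points are limma estimates (filled red at an adjusted p below 0.05), bars are 95% intervals and the vertical line marks 0. Cda has an interval of 2.99 to 5.96 for AG120_AZA against vehicle, and the estimates of the other 9 genes lie within 1 log2 unit of 0.

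Uptake and the opening phosphorylation were next. Slc29a1, the ENT1 transporter (chr17:45585200-45599606, minus strand), stood at 4.84 and 5.25 in vehicle, 5.80 and 5.41 in AG120, 4.88 and 5.11 in AZA, and 5.43 and 5.71 in AG120_AZA. All 4 libraries with AG120 lay above the 4 without it, by 0.57 ± 0.19 on average (adjusted p = 0.0966), which did not pass. Uck1 (chr2:32255002-32260159, minus strand) stood at 3.90 and 4.05 in vehicle, 4.81 and 4.79 in AG120, 4.12 and 4.13 in AZA, and 4.19 and 5.06 in AG120_AZA. The libraries with AG120 again lay above those without, by 0.67 ± 0.24 (adjusted p = 0.118), and AG120_AZA replicate 1 lay close to the AZA libraries. Uck1 overlaps Pomt1 on the other strand, and the sources used here do not say whether the counting used strand. Of the 10 genes, 4 did not overlap between libraries with and without AG120, beside 14.0% of all genes. Cda, Slc29a1 and Uck1 were the 3 higher ones and Samhd1 the lower one.

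Uck2, the more efficient of the uridine-cytidine kinases (chr1:167222883-167285320, minus strand), stood at 6.74 and 7.22 in vehicle, 7.26 and 7.20 in AG120, 6.83 and 7.10 in AZA, and 7.23 and 7.60 in AG120_AZA. The groups with and without AG120 overlapped, and the difference of 0.35 ± 0.16 (adjusted p = 0.227) did not pass. In AG120_AZA against vehicle Uck2 had a change of 0.43 ± 0.23 (adjusted p = 0.320). Within a library, the gap between Cda and Uck2 moved from -5.33 log2 units on average in vehicle and -4.94 in AZA to -3.14 in AG120 and -1.29 in AG120_AZA. Only the shift between groups can be read from that gap, since levels of different genes are not on one scale.

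Cmpk1 followed another pattern, with low values in the combination alone. It stood at 5.27 and 5.48 in vehicle, 5.45 and 5.34 in AG120, 5.42 and 5.18 in AZA, and 4.90 and 4.35 in AG120_AZA (chr4:114959336-114987241, minus strand). Both AG120_AZA libraries lay below the other 6. Cda and Cmpk1 were 2 of the 10 genes whose AG120_AZA libraries did not overlap the other 6, as was seen for 17.4% of all genes. The change was -0.75 ± 0.28 from vehicle (adjusted p = 0.155), -0.77 ± 0.28 from AG120 (adjusted p = 0.431) and -0.68 ± 0.28 from AZA (adjusted p = 0.213). None of these passed, and the interaction of -0.70 ± 0.39 (adjusted p = 0.807) did not pass either.

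Rrm1, the large subunit of ribonucleotide reductase (chr7:102441695-102469771, plus strand), ranged from 7.28 to 7.84 over the 8 libraries. Rrm2, the small subunit that rises in S phase (chr12:24708241-24714146, plus strand), ranged from 6.52 to 7.50. The change in AG120_AZA against vehicle was 0.13 ± 0.19 for Rrm1 and 0.30 ± 0.27 for Rrm2, and the Rrm2 value fell to -0.038 without vehicle replicate 1. With and without AG120 they differed by 0.24 ± 0.14 (adjusted p = 0.325) and 0.24 ± 0.20 (adjusted p = 0.492). Dck, the deoxycytidine kinase (chr5:88764996-88783281, plus strand), ranged from 3.49 to 4.87, with its highest and second highest values in AZA replicate 1 and AG120_AZA replicate 1. Its difference with AG120 was -0.44 ± 0.28 (adjusted p = 0.368).

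Among the remaining catabolic genes, Samhd1 came closest to a call. It stood at 7.42 and 6.82 in vehicle, 6.29 and 6.08 in AG120, 7.14 and 6.71 in AZA, and 6.55 and 6.37 in AG120_AZA (chr2:157097533-157135265, minus strand). All 4 libraries with AG120 lay below the 4 without. The difference was -0.70 ± 0.19 (95% interval -1.10 to -0.29, adjusted p = 0.0507), which did not pass. It passed without AZA replicate 2 (-0.83, adjusted p = 0.0370), with precision weights from limma's vooma (adjusted p = 0.0496) and with the replicate number as a block (adjusted p = 0.0324). Dctd (chr8:48099092-48153233, plus strand) stood at 3.95 and 3.59 in vehicle, 4.25 and 4.43 in AG120, 3.85 and 3.91 in AZA, and 4.54 and 3.35 in AG120_AZA, where the 2 libraries of the combination were its highest and lowest. Its difference with AG120 was 0.32 ± 0.29 (adjusted p = 0.546).

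The genes whose levels ran most like Cda were sought by Pearson correlation over the 8 libraries, which share 4 treatments. The search covered 8088 genes with a mean of at least 3 log2 CPM, and left out gene models without a proper name (Gm numbers, Rik and clone names). The 10 nearest were Cluh (0.990), Elovl1 (0.990), Gmpr (0.988), Diablo (0.985), Ubxn2a (0.984), Abcb6 (0.983), Fam234b (0.982), Pfkp (0.980), Kpna2 (0.977) and Cdc20 (0.977). Abcb6 is a porphyrin transporter, Gmpr converts GMP to IMP, and Cdc20 activates the anaphase-promoting complex. Abcb6 stood at 2.40 and 1.97 in vehicle, 4.46 and 3.52 in AG120, 2.09 and 2.71 in AZA, and 4.73 and 5.04 in AG120_AZA. Its libraries took nearly the order of Cda, and those of Elovl1, Fam234b and Kpna2 took that order exactly. All 10 genes were picked for their correlation with Cda, so a shared order is no further result. The correlation does not reflect the size of a change. Cluh ran from 8.88 to 9.98 and Pfkp from 6.58 to 7.42, a smaller span than 0.98 to 6.33 for Cda.

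Markers of several cell types differed between the groups, in different ways. Kit, the marker that the sort selects for, stood at 6.31 and 6.59 in vehicle, 5.15 and 5.84 in AG120, 6.65 and 5.54 in AZA, and 4.51 and 4.26 in AG120_AZA, and its correlation with Cda over the 8 libraries was -0.989. In AG120_AZA against vehicle Kit fell by 2.06 (adjusted p = 0.0148, limma). The Kit call was lost without vehicle replicate 2 (-1.92) and without AG120_AZA replicate 2 (-1.94). It was kept in 6 of 7 other fits (adjusted p up to 0.122, limma). The 7 include a block with the AG120_AZA replicate numbers crossed, which was chosen after the data were seen. Itgam, which encodes the CD11b that the sort excludes, averaged 3.06 in AG120_AZA, 3.13 in AG120, 3.22 in vehicle and 3.86 in AZA. Over all genes, limma called 3.02% in AG120_AZA against vehicle and 5.85% with AG120 over both AZA levels. Of 17 erythroid markers measured of 18, 8 were called higher and none lower in the former, with 16 positive changes and 1 negative. In the latter 9 were called higher and none lower, with 11 positive changes and 6 negative. The summed level of the 17 markers was 1829 to 2704 CPM in vehicle, 920 to 2374 in AG120, 2134 to 4987 in AZA and 4575 to 4610 in AG120_AZA. The globin gene Hbb-bs, with the highest mean log2 CPM in that list, had a correlation of 0.19 with Cda. Klf1, an erythroid transcription factor chosen here after its values were seen, had one of 0.926.

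Of 14 mast cell, basophil and eosinophil markers measured of 16, 5 were called higher in AG120_AZA against vehicle and 7 with AG120 over both AZA levels. These comparisons called 3.02% and 5.85% of all genes. In each of them 13 of the 14 changes were positive. The 14 markers summed to 938 to 1367 CPM in vehicle, 3626 to 3817 in AG120, 1474 to 1475 in AZA and 2346 to 3715 in AG120_AZA. Of 8 stem and progenitor markers measured of 11, 4 were called lower in AG120_AZA against vehicle and 6 with AG120. All 8 had negative changes in both comparisons. The 8 markers summed to 571 to 888 CPM in vehicle, 292 to 298 in AG120, 567 to 727 in AZA and 216 to 263 in AG120_AZA. Neutrophil markers (15 of 15 measured) summed to 8625 to 25132 CPM in vehicle, 11484 to 19776 in AG120, 21470 to 24104 in AZA and 3162 to 7255 in AG120_AZA. Of the 15, 10 had negative changes in AG120_AZA against vehicle and 14 with AG120. In each comparison 1 was called lower, beside 3.02% and 5.85% of all genes called. Monocyte markers (10 of 11) summed to 733 to 2209 CPM in vehicle, 393 to 419 in AG120, 1034 to 1862 in AZA and 348 to 358 in AG120_AZA. Of the 10, 4 were called lower in AG120_AZA against vehicle and 5 with AG120, where 7 and 8 had negative changes. Megakaryocyte markers (6 of 6) summed to 2430 to 2600 CPM in vehicle, 540 to 1400 in AG120, 2227 to 2692 in AZA and 3595 to 3864 in AG120_AZA. None of the 6 was called in either comparison. All 6 had positive changes in AG120_AZA against vehicle, while 5 had negative changes and 1 a positive one with AG120. Of the B, T and NK cell list 3 of 9 genes were measured. Among these 1 was called higher with AG120 and none in AG120_AZA against vehicle. The called gene was Trbc1, which lay at the lowest value of the library in vehicle replicate 2 and in both AZA libraries. Of the stromal and endothelial list 1 of 7 was measured (Pecam1), and it was called in neither. In sorted bulk cells a change in the share of a cell type and a change in RNA per cell cannot be told apart, and the part of these markers in the Cda result was not tested.

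**Figure D3:**
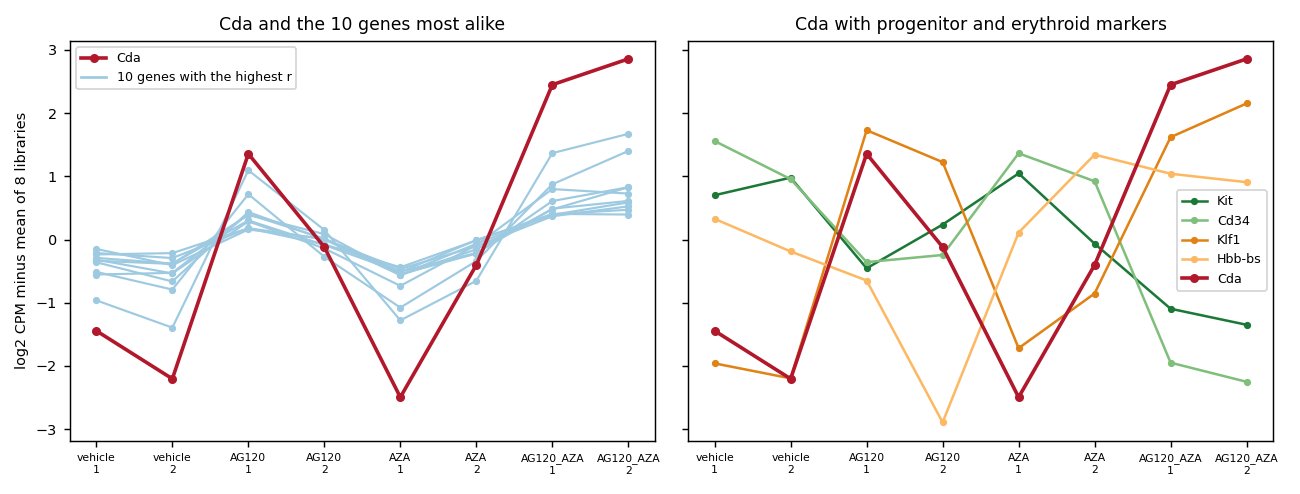
Level of each gene minus its mean over the 8 libraries (log2 units, vertical axis) in each library (horizontal axis), with Cda and its 10 most alike genes on the left and Cda with Kit, Cd34, Klf1 and Hbb-bs on the right; points are libraries, and the lines only join them and show no order. The AG120_AZA libraries hold the highest Cda values, 5.92 and 6.33 log2 CPM, and the lowest Kit values, 4.51 and 4.26. Cd34 has a correlation of -0.940 with Cda. Meis1, the stem and progenitor marker with the highest mean, is not drawn and has one of -0.538.

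The rest of azacitidine and nucleotide metabolism was read from lists of named genes, in AG120_AZA against vehicle and in the AG120 difference over both AZA levels. These comparisons called 3.02% and 5.85% of all genes. In the former, 1 of 7 measured transporters passed. This was Abcg2, an efflux pump, which rose by 2.07 ± 0.47 (adjusted p = 0.0421). It stood at 1.86 and 1.50 in vehicle, 2.58 and 2.57 in AG120, 3.03 and 3.90 in AZA, and 3.54 and 3.96 in AG120_AZA, so the AZA libraries lay nearer the combination than the AG120 libraries did. The Abcg2 call was lost on leaving out any vehicle, AG120 or AG120_AZA library, with changes from 1.86 to 2.28 over the 8 omissions. It was kept in 2 of 6 other fits (adjusted p up to 0.0891, limma). None of 15 measured salvage kinases passed against vehicle (7 at an unadjusted p below 0.05, limma). With AG120, Nme3, a nucleoside diphosphate kinase of that list, rose by 1.00 ± 0.25 (adjusted p = 0.0393). Among the 8 omissions the Nme3 call was kept only without AG120 replicate 2 or AZA replicate 2, with changes from 0.73 to 1.21. It was kept in 3 of 4 other fits (adjusted p up to 0.1145, limma).

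Of 5 measured deaminases of the wider family, 1 was called lower in both comparisons. Apobec3, which deaminates cytosines in viral DNA, fell by 1.11 ± 0.25 in AG120_AZA against vehicle (adjusted p = 0.0387) and by 0.74 ± 0.17 with AG120 (adjusted p = 0.0285). The former call was lost on leaving out either vehicle library, either AG120 library or AG120_AZA replicate 2. Over the 8 omissions the change was -1.31 to -0.92, and the call was kept in 4 of 7 other fits (adjusted p up to 0.184, limma). The 7 again include the crossed block chosen after the data were seen. The latter call was lost on leaving out vehicle replicate 1, AG120 replicate 1, AZA replicate 1 or either AG120_AZA library. Over the 8 omissions this change was -0.86 to -0.59, and the call was kept in 4 of 5 other fits (adjusted p up to 0.121, limma). Cda and Apobec3 thus changed in opposite directions in the same libraries.

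Of 8 de novo pyrimidine synthesis genes, none passed against vehicle (3 at an unadjusted p below 0.05, limma) and 1 passed with AG120. This was Cad, which carries out the opening steps of pyrimidine synthesis, with a rise of 0.89 ± 0.18 (adjusted p = 0.0166). The call was lost without vehicle replicate 2 (0.81), AG120 replicate 1 (0.93) or AZA replicate 1 (0.74). It was kept in 4 of 5 other fits (adjusted p up to 0.0913, limma). Of 24 DNA replication genes, 1 passed against vehicle and none with AG120 (4 at an unadjusted p below 0.05, limma). Ccne1, cyclin E1, rose by 1.16 ± 0.27 (adjusted p = 0.0447, limma). The Ccne1 call was lost on leaving out any vehicle, AG120 or AG120_AZA library, with changes from 1.03 to 1.28 over the 8 omissions. It was kept in 4 of 7 other fits, the crossed block among the 7 (adjusted p up to 0.127, limma). The medians of the 24 were 0.11 and 0.10, beside 0.02 and 0.01 over all genes. None of 10 measured nucleotidases and none of 4 ribonucleotide reductase partners passed in either comparison (2 and 2 nucleotidases, and 1 and 2 partners, at an unadjusted p below 0.05, limma). Of the pyrimidine catabolism list, Upp1, uridine phosphorylase, was the 1 gene measured of 6 and had changes of 0.15 and -0.37, neither of which passed. Of Dnmt1, Dnmt3a, Dnmt3b and Uhrf1, a cofactor of Dnmt1, all had negative changes with AG120 and 1 was called. This was Dnmt3a, a de novo enzyme, which fell by 0.74 ± 0.18 (adjusted p = 0.0341, limma). The Dnmt3a call was lost in 5 of 8 omissions and kept in 4 of 5 other fits (adjusted p up to 0.101, limma).

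**Figure D4:**
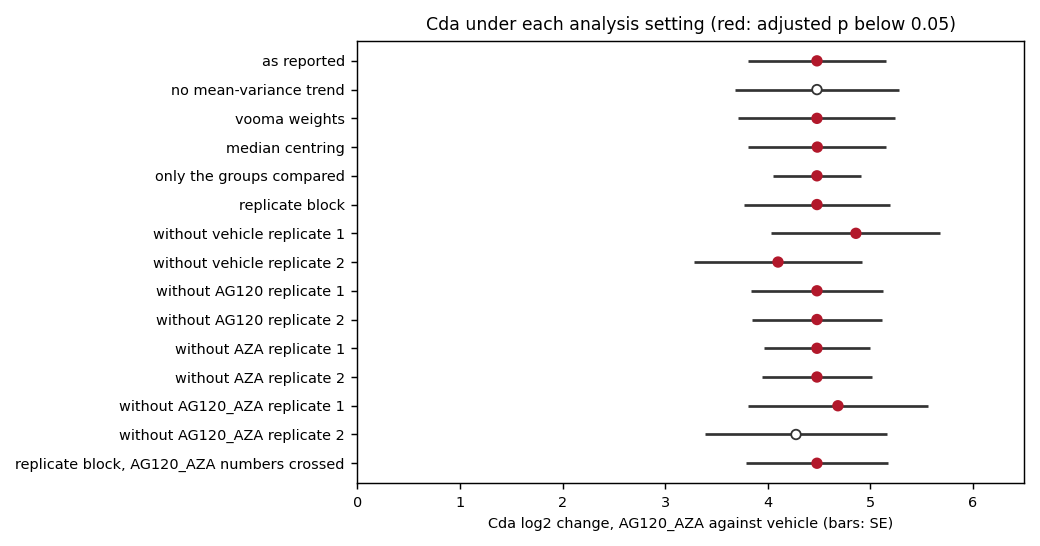
Cda change in AG120_AZA against vehicle (log2 units, horizontal axis) as reported, under other fits and with each library left out (vertical axis); points are limma estimates, red at an adjusted p below 0.05 and open otherwise, and bars are SE. Over the omissions the estimate lies between 4.10 and 4.86, and the 2 open points are the fit without the trend and the one without AG120_AZA replicate 2.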

How the data were processed

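The submitters' processing notes name the build mm10, HISAT2 2.1.0, edgeR 3.28.1, limma 3.42.2, R 3.6.2, Subread 1.6.3 with featureCounts, cutadapt 1.14 and bcl2fastq 2.17.1.14, without their order or role. The authors deposited log2 CPM for 12294 genes in 8 libraries. All libraries share a maximum of 13.37 and nearly one distribution, so their totals, and with them their depth, are lost; the median gene rested on at least 105 to 149 reads.

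The values were used as deposited, without a filter. Limma 3.58.1 in R 4.3.3 (lmFit, eBayes with a mean-variance trend) fitted 4 group means, or an additive model for the difference with each drug. P-values are two-sided and adjusted by Benjamini-Hochberg over all genes; a gene was called at an adjusted p below 0.05. The fit was also run on simulated data with independent noise for each gene. That run cannot test shifts that genes of a library share, and nothing is concluded from it. Alternatives were no trend, vooma weights, median centring, a minimum mean of 5, the compared groups only, a replicate block and each library left out. A block with the AG120_AZA replicate numbers crossed was added after the data were seen. It was run for AG120_AZA against vehicle only and is counted among the other fits there.

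The 10 genes and all lists were chosen with earlier results of these data known. Besides the 10, the rule named genes of the lists other than markers called in any of 8 comparisons, the 10 genes most correlated with Cda, Kit, Itgam and the 2 genes with the highest mean of each marker list. Of those genes with the highest means, most are not shown. Hbb-bs is given in the text and Cd34 is drawn in a figure. Klf1 and Trbc1 fall outside this rule. A result from the lists is not reported here. Coordinates are from GENCODE M21. Promoter windows are from RefSeq.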

Additional observations from a re-analysis of the deposited data

How the results depend on the processing

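Over 40 results for single genes and 538 alternatives, 464 kept direction and side of the threshold, 64 lost a call, 3 gained one and 7 changed sign. The 538 include the crossed block, which was added after the data were seen. The sign changed only on leaving out a library and only for values that had not passed: Cda in AZA against vehicle ranged from -0.67 to 1.42, and in AG120_AZA against vehicle Dck ranged from -0.58 to 0.27, Dctd from -0.42 to 0.77 and Rrm2 from -0.038 to 0.64. Cda in AG120_AZA against vehicle ranged from 4.10 to 4.86, in AG120_AZA against AZA from 3.06 to 5.15 and with AG120 from 2.69 to 3.73.

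Without the mean-variance trend the genes called were 0 for AG120 against vehicle, 2 for AZA, 43 for AG120_AZA, 9 for AG120_AZA against AZA and 211 with AG120, and 0 of the 10 genes were called; the Cda changes stayed at 4.48, 4.10 and 3.27 and did not pass. The cause was not tested. A minimum mean of 5 log2 CPM left 23, 82, 67 and 369 genes called for AG120, AG120_AZA, AG120_AZA against AZA and AG120 over both AZA levels; Cda lies under that minimum, so the 10 genes were not counted. Fitting only the groups compared gave 18 for AG120, 1 for AZA and 200 for AG120_AZA. Vooma weights gave 39 for AG120 and 2 of the 10 genes with AG120 over both AZA levels. On leaving out a library the genes called ranged from 8 to 103 for AG120, 0 to 1 for AZA, 37 to 727 for AG120_AZA, 0 to 213 against AG120, 14 to 594 against AZA, 0 to 29 for the interaction and 201 to 771 with AG120. The fewest for AG120_AZA (37) came without AG120_AZA replicate 2 and the most (727) without AG120_AZA replicate 1. Of the 10 genes, 0 to 1 were called for AG120_AZA, 0 to 1 against AZA and 1 to 2 with AG120.

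Deviations of same-numbered libraries had correlations from -0.111 to 0.194 between groups. This does not settle whether the numbers pair the libraries. With the replicate number as a block, 370 genes were called for AG120_AZA, Cda stayed at 4.48 (adjusted p = 0.0137), and 2 of the 10 genes were called with AG120. With the AG120_AZA numbers crossed, chosen after seeing the data, 432 genes and 1 of the 10 were called. Groups of 2 libraries limit the precision throughout.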
